A study of Mus musculus with 12 samples.

Results

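The mitochondrial ribosomal protein genes are the nuclear genes that encode the protein subunits of the mitochondrial ribosome. They were taken from the series' expression table by symbol, as Mrpl or Mrps followed by a digit, with entries marked as pseudogenes left out. The rule found 78 of the 57010 genes in the table, 49 with an Mrpl symbol (large subunit) and 29 with an Mrps symbol (small subunit), and it used no measured value. All 78 reached 1 TPM in at least 6 of the 12 libraries and were among the 9980 genes tested. TPM, a relative transcript abundance, is a level per transcript length that sums to the same total in every library.

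The series holds 6 liver RNA sequencing libraries of a selenium group and 6 of a control group. The selenium group was given selenium-enriched Aspergillus oryzae A02 (a strain of a food mould). All mice were wild-type male C57BL/6J on a normal diet, 6 weeks old, with 7 days of acclimatization before the study. The selenium group received 0.5 mg/kg selenium daily by gavage in saline, while the labels of the controls give no treatment and mention no saline gavage, so gavage, the mould and selenium cannot be told apart. The design text gives 8 weeks of feeding and the sample descriptions 14 weeks. The protocol states 10 mice per group, and 6 libraries per group are used here. The livers are numbered 1 to 6 within each group, and nothing in the labels says outright that each is a different mouse, so p-values measure the spread between these libraries. The labels name liver as the tissue and hepatocyte as the cell type. In bulk tissue, fewer cells of a type and less RNA per cell cannot be told apart.

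Mitochondria carry their own ribosomes, which translate the few mRNAs of the mitochondrial genome into core proteins of the respiratory chain and ATP synthase. The ribosomal RNAs are mitochondrial-encoded, whereas every protein subunit is made in the cytosol from a nuclear gene and imported. Many subunits descend from proteins of the bacterial ribosome, and the others were added during the evolution of mitochondria. Nuclear respiratory factor 1 (NRF1) and the ETS factor GABP are known activators of nuclear genes for mitochondrial proteins.

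Promoter windows of 250 bases before to 50 bases after the annotated start, from RefSeq on GRCm38.p6, were matched by symbol for 69 of the 78 genes, with 75 windows. The window of Mrpl33 is shown because it holds both an NRF1 core and an ETS match and belongs to one of the most abundant large subunit transcripts. Those of Mrps27 and Mrpl47 are shown because these genes had the smallest p among the genes with higher and with lower levels in selenium livers. That of Mrpl43 is shown because it starts head to head with Twnk, which encodes the mitochondrial DNA helicase. Capitals mark the NRF1 core letters GCGCATGC and the ETS letters CCGGAAGT (ACTTCCGG where the match lies on the other strand). The windows are chr5:31613701-31614000 on the plus strand for Mrpl33, chr13:99344536-99344835 on the plus strand for Mrps27, chr3:32736706-32737005 on the minus strand for Mrpl47 and chr19:45006393-45006692 on the minus strand for Mrpl43, each printed 5′ to 3′ in the gene's direction.
Mrpl33: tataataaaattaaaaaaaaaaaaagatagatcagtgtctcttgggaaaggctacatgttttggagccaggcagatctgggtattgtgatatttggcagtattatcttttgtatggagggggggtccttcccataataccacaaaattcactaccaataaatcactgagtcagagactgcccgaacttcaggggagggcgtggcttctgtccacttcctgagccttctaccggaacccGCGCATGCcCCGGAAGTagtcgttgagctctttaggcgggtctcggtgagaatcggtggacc
Mrps27: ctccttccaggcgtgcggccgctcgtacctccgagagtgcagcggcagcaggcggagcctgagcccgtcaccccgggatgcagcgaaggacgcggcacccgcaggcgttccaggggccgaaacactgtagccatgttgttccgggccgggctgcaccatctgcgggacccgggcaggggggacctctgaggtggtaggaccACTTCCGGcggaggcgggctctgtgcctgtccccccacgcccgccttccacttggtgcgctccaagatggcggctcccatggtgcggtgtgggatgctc
Mrpl47: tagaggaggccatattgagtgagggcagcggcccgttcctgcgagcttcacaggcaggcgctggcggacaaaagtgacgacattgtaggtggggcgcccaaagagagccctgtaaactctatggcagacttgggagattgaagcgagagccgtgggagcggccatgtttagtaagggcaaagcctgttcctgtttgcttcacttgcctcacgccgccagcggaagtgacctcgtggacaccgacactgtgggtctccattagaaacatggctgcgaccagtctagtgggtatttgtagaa
Mrpl43: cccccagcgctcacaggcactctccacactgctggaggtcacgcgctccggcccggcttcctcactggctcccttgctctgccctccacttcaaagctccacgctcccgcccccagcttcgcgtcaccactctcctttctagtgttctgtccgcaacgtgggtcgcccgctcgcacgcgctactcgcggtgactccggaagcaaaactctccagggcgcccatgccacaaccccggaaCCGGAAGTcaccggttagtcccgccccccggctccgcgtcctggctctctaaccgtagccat

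Searched on both strands, the NRF1 core was present in 8 of the 75 windows (10.7%), against 2.71% of all 32851 windows in the table. Its carriers were Mrpl9, Mrpl10, Mrpl17, Mrpl22, Mrpl32, Mrpl33, Mrpl39 and Mrps18b. The ETS letters stood in 12 of the 75 windows (16%), against 3.89% of all windows, and Mrpl33 was the gene that held both motifs. The E-box CACGTG, which reads the same on both strands and is bound by MYC among other factors, was in 7 member windows (9.33%), 3 of them windows of Mrpl2, and in 7.15% of all windows, and by gene it was held by 5 of the 69 matched members (7.25%). The window of Mrpl47 held none of these letters. Member windows also had a median GC content of 58.7%, against 52.7% for all windows, and the part of base composition in the motif shares was not tested. A match is a string of letters and not a measured binding site.

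Many of these genes start back to back with a neighbour. A window of another gene on the opposite strand overlapped the window of 24 of the 69 matched genes (34.8%), or 34.7% of the member windows against 10.8% of all windows. Mrps11 and Mrpl46, of the small and the large subunit, face each other. Mrps12 faces Sars2, the mitochondrial seryl-tRNA synthetase, and Mrpl47 faces Ndufb5, a subunit of respiratory complex I. Mrps27 faces Ptcd2, a mitochondrial RNA-binding protein, and Mrpl49 faces Fau, which encodes a ubiquitin-like protein fused to a cytosolic ribosomal protein.

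Transcript levels differed widely among the genes of this single complex. The median over the 12 libraries was 20.8 TPM for the 78 genes, 21.1 TPM for the large and 18.8 TPM for the small subunit, against 6.04 TPM for the other tested genes with a known transcript length. Of the 78 genes, 2 had a median under 5 TPM, 35 lay from 5 to 20 TPM, 33 from 20 to 50 TPM and 8 at 50 TPM or more. Mrps21, a small subunit protein with a bacterial relative, was the most abundant, with a median of 217 TPM and a range of 152 to 323 TPM. Its lowest library lay above the highest library of every other member.

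Behind it came Mrpl30, Mrpl33, Mrpl42 and Mrpl14 of the large subunit, with medians of 88.4, 81.9, 76.4 and 65.9 TPM. The ranges of these 4 genes overlapped, from 60.3 to 107 TPM for Mrpl30 and from 38.9 to 107 TPM for Mrpl14, so their order was not separated from the spread between libraries. In the small subunit, Mrps18c, Mrps17 and Mrps14 followed Mrps21 with medians of 48.1, 38.4 and 37.3 TPM. The lowest medians of the large subunit were those of Mrpl19 and Mrpl23, with 1.54 and 1.74 TPM, and the lowest of the small subunit those of Mrps30 and Mrps25, with 5.99 and 6.61 TPM. Subunits with a bacterial relative had median levels of 23.3 TPM (30 large subunit genes) and 21.9 TPM (16 small subunit genes), and the mitochondria-specific ones 15.9 TPM (19 large) and 16.96 TPM (12 small, or 14.2 TPM over 10 without the S18 relatives Mrps18a and Mrps18b).

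**Figure D1:**
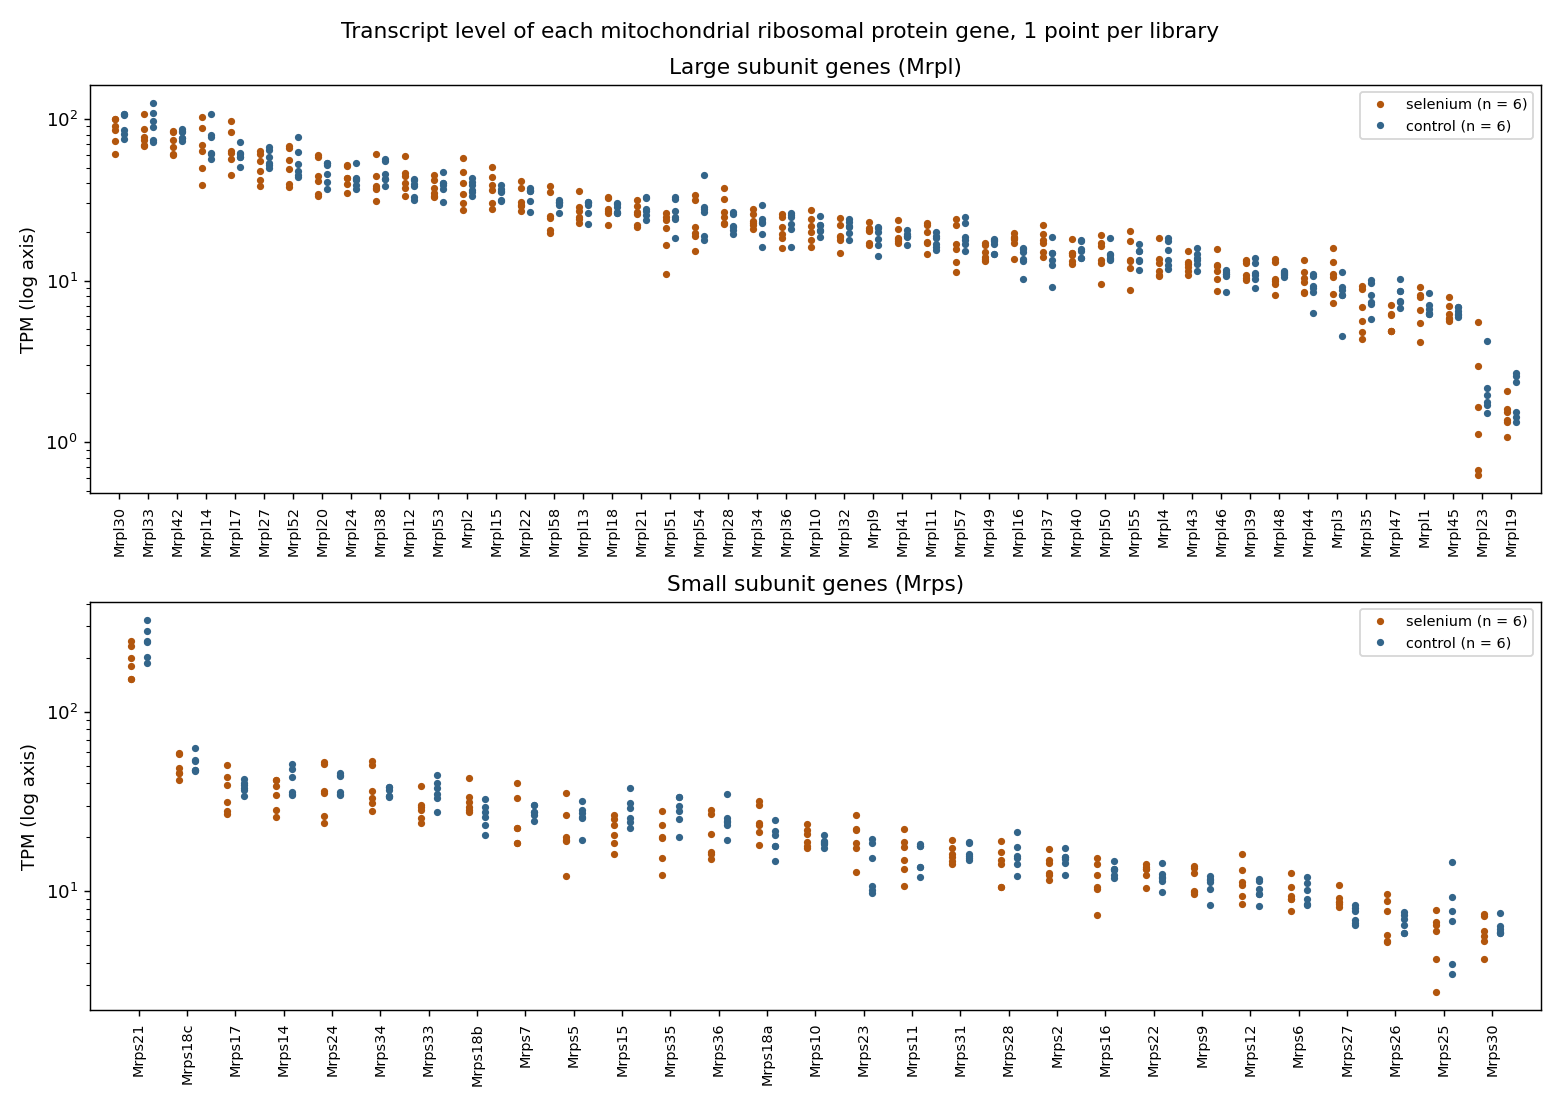
TPM of each gene on a log axis, ordered by median, with the 6 selenium libraries left of the 6 control libraries at each gene. Mrps21 stands above every other gene in every library, and Mrpl23 and Mrpl19 have the lowest medians. Single points of Mrpl23 reach up to 5.55 TPM, and the points of both groups overlap at each of the 78 genes.

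Shorter transcripts had higher levels. Across the 78 genes, median TPM and annotated transcript length had a Spearman rho of -0.51, and across 9140 other tested genes -0.33. These are correlations across genes that share the same 12 libraries, given as a description. The members' transcripts had a median length of 1052 bases, against 1955 bases for the other genes. Because TPM divides by length, the annotated lengths enter both measures.

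The level of Mrpl23, which encodes a protein near the exit of the peptide tunnel, is uncertain. Its processed pseudogene Mrpl23-ps1 had a median of 42.0 TPM, far above the 1.74 TPM of Mrpl23, and reads of near-identical copies can be divided between them. Mrpl23 also had the largest ratio of highest to lowest library among the 78 genes, 8.81, from 0.63 TPM in selenium 3 to 5.55 TPM in selenium 2. The 2 entries together summed to 40.3 ± 10.9 TPM in selenium livers and 47.3 ± 8.47 TPM in control livers (SD, n = 6 each).

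No mitochondrial ribosomal protein gene passed the threshold between selenium and control livers. With limma on log2(TPM + 1), 0 of the 78 genes had an adjusted p under 0.05, and 33 of all 9980 tested genes (0.331%) did, 0.02% higher and 0.311% lower. The smallest adjusted p among the 78 was 0.0974, for Mrpl47. Before adjustment, the limma p was under 0.05 for 3 genes with a higher mean in selenium livers (Mrps27, Mrpl16 and Mrps23) and 4 with a lower mean (Mrpl47, Mrps35, Mrps15 and Mrps33). These 7 genes are 8.97% of the 78, against 18.5% of all tested genes, and by direction the background was 7.01% higher and 11.4% lower. With an exact two-sided permutation test per gene over all 924 labellings, 5 of the 78 genes had an unadjusted p under 0.05. The share of all tested genes under that test is not given here, so this count has no background beside it. The smallest adjusted p of the 78 genes in that test was 0.157. Over all tested genes the smallest adjusted permutation p was 0.133. The permutation test thus called no tested gene, and its 0 adjusted calls among the members say nothing particular to them.

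The estimated changes were small. The median log2 change, selenium minus control, was -0.06 for the large subunit (16 genes above and 33 below 0). It was -0.08 for the small subunit (11 above and 18 below) and -0.03 for all tested genes (4529 above and 5451 below). All 78 changes lay between -0.52 and 0.50. The 95% interval of every one of the 78 genes stayed within a log2 change of 1 in either direction, and that of 48 genes within 0.5. In none of the 78 genes did all selenium libraries lie on one side of all control libraries, a pattern seen in 1.63% of all tested genes (0.16% higher and 1.47% lower).

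The balance of higher and lower genes moved with the scaling. TPM share a fixed total, and mitochondrial-encoded transcripts took 8.10 to 13.8% of it in selenium livers and 13.3 to 22.8% in control livers. As deposited, 27 of the 78 genes were above and 51 below 0, beside 4529 above and 5451 below of all 9980 tested genes. When the total was set without the mitochondrial-encoded genes, 16 were above and 62 below, with medians of -0.16 for both subunits and -0.11 for all tested genes. On that scale Mrpl47 passed, with a log2 change of -0.56 and an adjusted p of 0.0465 by limma, as did 190 tested genes in all. There, 0 members were higher and 8 lower at an unadjusted p under 0.05 (all tested genes 3.65% higher and 17.5% lower). Median-of-ratios scaling gave 8 higher and 3 lower members (all tested genes 10.9% higher and 10.9% lower). Quantile normalization gave 7 higher and 5 lower members (all tested genes 13.4% higher and 9.65% lower).

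In the large subunit, Mrpl47, the mitochondrial relative of bacterial L29, a protein by the tunnel exit, had the smallest p of all members. Its levels in selenium livers 1 to 6 were 4.85, 4.89, 4.89, 6.15, 6.19 and 7.09 TPM, against 6.73, 8.63, 7.37, 10.2, 8.66 and 7.49 TPM in control livers 1 to 6. Only selenium 6 reached into the control range, above control 1. The means were 5.68 ± 0.939 TPM in selenium and 8.18 ± 1.25 TPM in control livers (SD, n = 6 each). The log2 change was -0.46, with a 95% interval from -0.73 to -0.20 and a limma p of 0.00222 before adjustment. Ndufb5, whose start faces that of Mrpl47 and which is named here for that position, had 118 ± 23.1 TPM in selenium and 140 ± 13.8 TPM in control livers, a log2 change of -0.26.

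Mrpl16, a core protein close to the peptidyl transferase centre, ran the other way. It had 17.04, 18.2, 18.1, 19.8, 13.6 and 18.6 TPM in selenium livers 1 to 6, against 15.1, 13.2, 15.7, 13.6, 10.2 and 15.9 TPM in control livers 1 to 6. Selenium 5 fell within the control range, and the other 5 selenium libraries lay above every control. The log2 change was 0.32 (95% interval 0.05 to 0.59), with a limma p of 0.0234 and an adjusted p of 0.201.

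The other large subunit genes by the naming rule had limma p-values of 0.0508 or more. Mrpl37, a mitochondria-specific protein, had 17.5 ± 2.91 TPM in selenium and 13.9 ± 3.16 TPM in control livers, a log2 change of 0.33. Mrpl28 had a log2 change of 0.27, and Mrpl3, a core protein with a bacterial relative, 0.36, with 11 ± 3.19 TPM in selenium and 8.35 ± 2.21 TPM in control livers. On the lower side, Mrpl51 had 20.5 ± 5.75 TPM in selenium and 26.6 ± 5.49 TPM in control livers, a log2 change of -0.38. Mrpl35, Mrpl19 and Mrpl42 had log2 changes of -0.27, -0.24 and -0.17. The abundant Mrpl30, Mrpl33 and Mrpl14 had log2 changes of -0.15, -0.21 and -0.14.

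The stalk of the large subunit, where translation factors dock, is built by Mrpl10, Mrpl11 and Mrpl12. Mrpl12 had 43.5 ± 9.03 TPM in selenium and 37.8 ± 4.51 TPM in control livers, a log2 change of 0.18 with an interval from -0.11 to 0.48. Mrpl11 and Mrpl10 had log2 changes of 0.09 and -0.03, and all 3 intervals held 0. Mrpl58, a peptidyl-tRNA hydrolase that releases stalled chains and is also a subunit, had 27.3 ± 7.92 TPM in selenium and 29.7 ± 1.89 TPM in control livers. Its log2 change was -0.16, and the selenium libraries ranged from 19.8 to 38.6 TPM around the controls at 26.0 to 31.3 TPM.

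In the small subunit the largest differences were in mitochondria-specific proteins. Mrps35 had 15.3, 20.1, 12.4, 28.1, 19.9 and 23.3 TPM in selenium livers 1 to 6, against 29.7, 25.3, 33.5, 28.2, 33.5 and 19.99 TPM in control livers 1 to 6. The groups overlapped, since control 6 lay below 3 selenium libraries. The log2 change was -0.52 (95% interval -0.91 to -0.13), with a limma p of 0.0131 and an adjusted p of 0.166.

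Mrps23 had 17.4, 22.3, 18.5, 26.5, 12.8 and 22.1 TPM in selenium livers 1 to 6, against 18.6, 10.7, 10.2, 15.3, 9.73 and 19.6 TPM in control livers 1 to 6. Controls 1, 4 and 6 stood within the selenium range, and selenium 1, 3 and 5 within the control range. The log2 change was 0.50 (0.06 to 0.93), with a limma p of 0.0284 and an adjusted p of 0.217. It was 0.69 between the 4 selenium and 4 control livers with Dbp under 10 TPM and 0.10 between the other 2 selenium and 2 control livers.

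Mrps27, which carries pentatricopeptide repeats and binds mitochondrial RNA, had 8.72, 10.9, 8.75, 8.49, 9.21 and 8.17 TPM in selenium livers 1 to 6, against 6.48, 6.67, 8.03, 7.73, 6.91 and 8.41 TPM in control livers 1 to 6. Here only selenium 6 lay below a control, namely control 6. The log2 change was 0.26 (0.04 to 0.48), with a limma p of 0.0230 and an adjusted p of 0.200. Ptcd2, which faces Mrps27 and is named for that position, had 10.9 ± 0.826 TPM in selenium and 8.78 ± 1.82 TPM in control livers, a log2 change of 0.30 with an adjusted p of 0.226.

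Mrps15, with a bacterial relative, ranged from 16.2 to 26.5 TPM in selenium livers (median 21.9) and from 22.6 to 37.6 TPM in control livers (median 27.4). Its log2 change was -0.37, with a limma p of 0.0269 and an adjusted p of 0.212. The mitochondria-specific Mrps33 ranged from 23.9 to 38.8 TPM in selenium livers (median 28.8) and from 27.5 to 44.3 TPM in control livers (median 36.3), a log2 change of -0.30 with an adjusted p of 0.267. In both genes the ranges overlapped. The most abundant member, Mrps21, had 194 ± 41.0 TPM in selenium and 248 ± 50.5 TPM in control livers, a log2 change of -0.35 with a limma p of 0.0518.

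**Figure D2:**
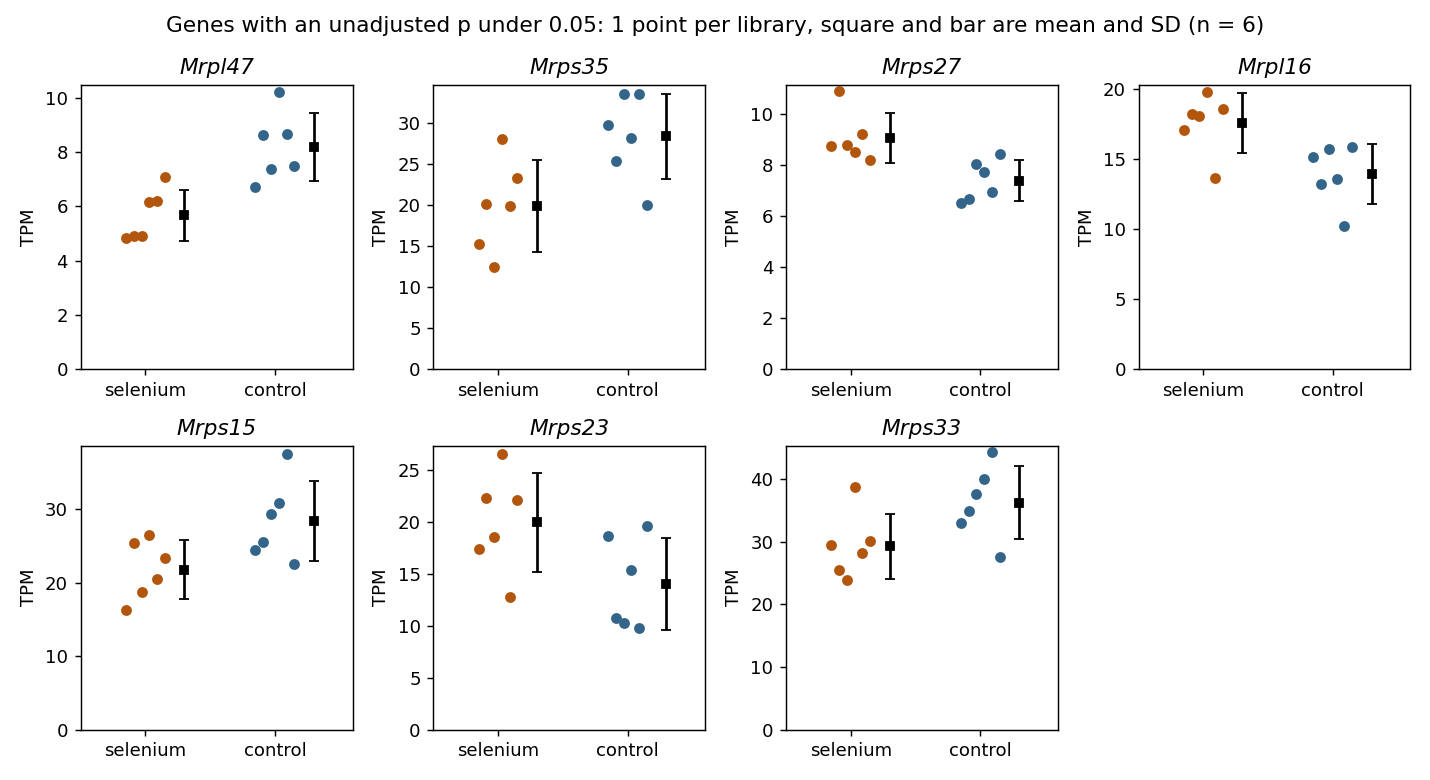
TPM in each library for the 7 genes with an unadjusted limma p under 0.05, selenium left of control, with mean and SD as a square and bar (n = 6 each). Mrpl47, Mrps35, Mrps15 and Mrps33 have the lower mean in selenium livers and Mrps27, Mrpl16 and Mrps23 the higher mean, and the groups overlap in every panel.

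Mrps12, a protein of the decoding site, had 11.6 ± 2.78 TPM in selenium and 10.2 ± 1.26 TPM in control livers, a log2 change of 0.15. Its head-to-head partner Sars2 had 2.44 ± 0.454 TPM in selenium and 1.83 ± 0.336 TPM in control livers, a log2 change of 0.28 with an adjusted p of 0.231. Among the other facing pairs named above, Twnk had a log2 change of 0.20, opposite in sign to -0.11 for Mrpl43. Fau had -0.09 beside -0.14 for Mrpl49, and Mrps11 had 0.04 beside 0.11 for Mrpl46. Whether facing genes change together was not tested. Mrps18a, Mrps18b and Mrps18c are all relatives of bacterial S18. Mrps18a, which sits in the large subunit in mammalian structures despite its symbol, had a log2 change of 0.32 (-0.01 to 0.65), and Mrps18b, in the small subunit, 0.27 (-0.02 to 0.56). Mrps18c, the one at the bacterial S18 position, had a log2 change of -0.06 (-0.32 to 0.19), and the 3 intervals overlapped.

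Mrps30, also a large subunit protein in mammalian structures, had a log2 change of -0.08, with 5.98 ± 1.24 TPM in selenium and 6.28 ± 0.649 TPM in control livers. Mrps36 is known as a component of the alpha-ketoglutarate dehydrogenase complex rather than of the ribosome. It had 20.7 ± 5.82 TPM in selenium and 25.3 ± 5.10 TPM in control livers, a log2 change of -0.30. Mrps17, Mrps14 and Mrps25 had log2 changes of -0.10, -0.23 and -0.30, each with an interval that held 0. Moving Mrps18a and Mrps30 to the large subunit and leaving out Mrps36 gave medians of -0.06 for the large and -0.08 for the small subunit.

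By origin, the median log2 change was -0.05 for 30 large subunit genes with a bacterial relative and -0.06 for 19 mitochondria-specific ones. In the small subunit it was -0.12 for 16 genes with a bacterial relative and 0.06 for 12 mitochondria-specific ones. The mitochondria-specific class follows the usual subunit names and so holds Mrps18a and Mrps18b, although both are relatives of bacterial S18, and without them its median was 0.00177 over 10 genes. The 12 genes held 2 of the 3 higher and 2 of the 4 lower genes at an unadjusted p under 0.05. That was 33.3% of the class by limma, against 18.5% of all tested genes (7.01% higher and 11.4% lower). It rests on few genes, and the classes were assigned after values had been seen.

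Library means of the subunit genes spread more widely than the groups differed. For the large subunit the group means of the deviations below were -0.02 in selenium and 0.02 in control livers, and for the small subunit -0.03 in selenium and 0.03 in control livers. The mean deviation of the large subunit genes from their own means over the 12 libraries, on log2(TPM + 1), was -0.29, 0.20, -0.20, 0.26, -0.13 and 0.02 in selenium livers 1 to 6, against -0.08, -0.05, 0.11, 0.13, 0.07 and -0.04 in control livers 1 to 6. For the small subunit it was -0.35, 0.27, -0.25, 0.23, -0.11 and 0.01 in selenium livers and -0.07, -0.03, 0.11, 0.13, 0.10 and -0.06 in control livers. The lowest and the highest of the 12 libraries were thus all in the selenium group, and the controls lay between them.

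**Figure D3:**
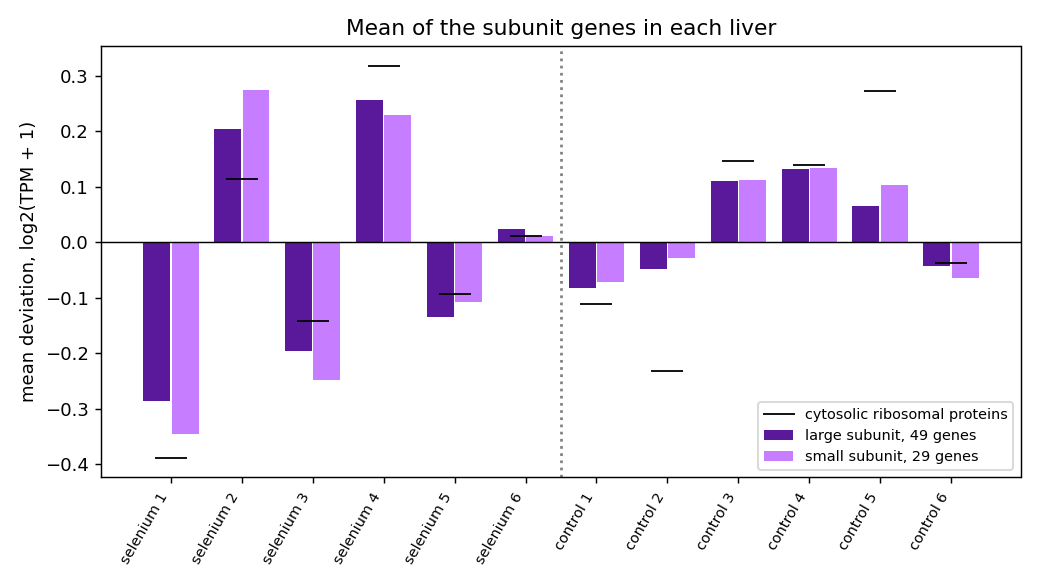
Mean deviation in log2(TPM + 1) of the 49 large and 29 small subunit genes in each library, with the cytosolic ribosomal protein genes as black ticks. Selenium 2 and 4 are highest and selenium 1 and 3 lowest, and both subunits have bars of the same sign in every library.

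The number of genes above their own mean shifted with the library, for the members and for all tested genes. In selenium livers 1 to 6, 8, 61, 13, 73, 8 and 42 of the 78 genes lay above their own mean, beside 36.0, 49.8, 64.1, 64.6, 14.2 and 61.8% of all tested genes. In control livers 1 to 6 the numbers were 17, 33, 60, 60, 47 and 33 of the 78, beside 45.4, 44.9, 57.3, 56.1, 46.2 and 61.8% of all tested genes. In selenium 5 the members' share of 10.3% was thus near that of all genes, whereas in selenium 3 most members lay below and most tested genes above their mean. The summed level of the 78 genes was 1669 to 2573 TPM in selenium livers (median 2051) and 2014 to 2491 TPM in control livers (median 2249), or 0.167 to 0.257% of all TPM in selenium and 0.201 to 0.249% in control livers. The group ranges overlapped, with means of 2117 ± 384 TPM in selenium and 2242 ± 213 TPM in control livers (SD, n = 6 each).

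**Figure D4:**
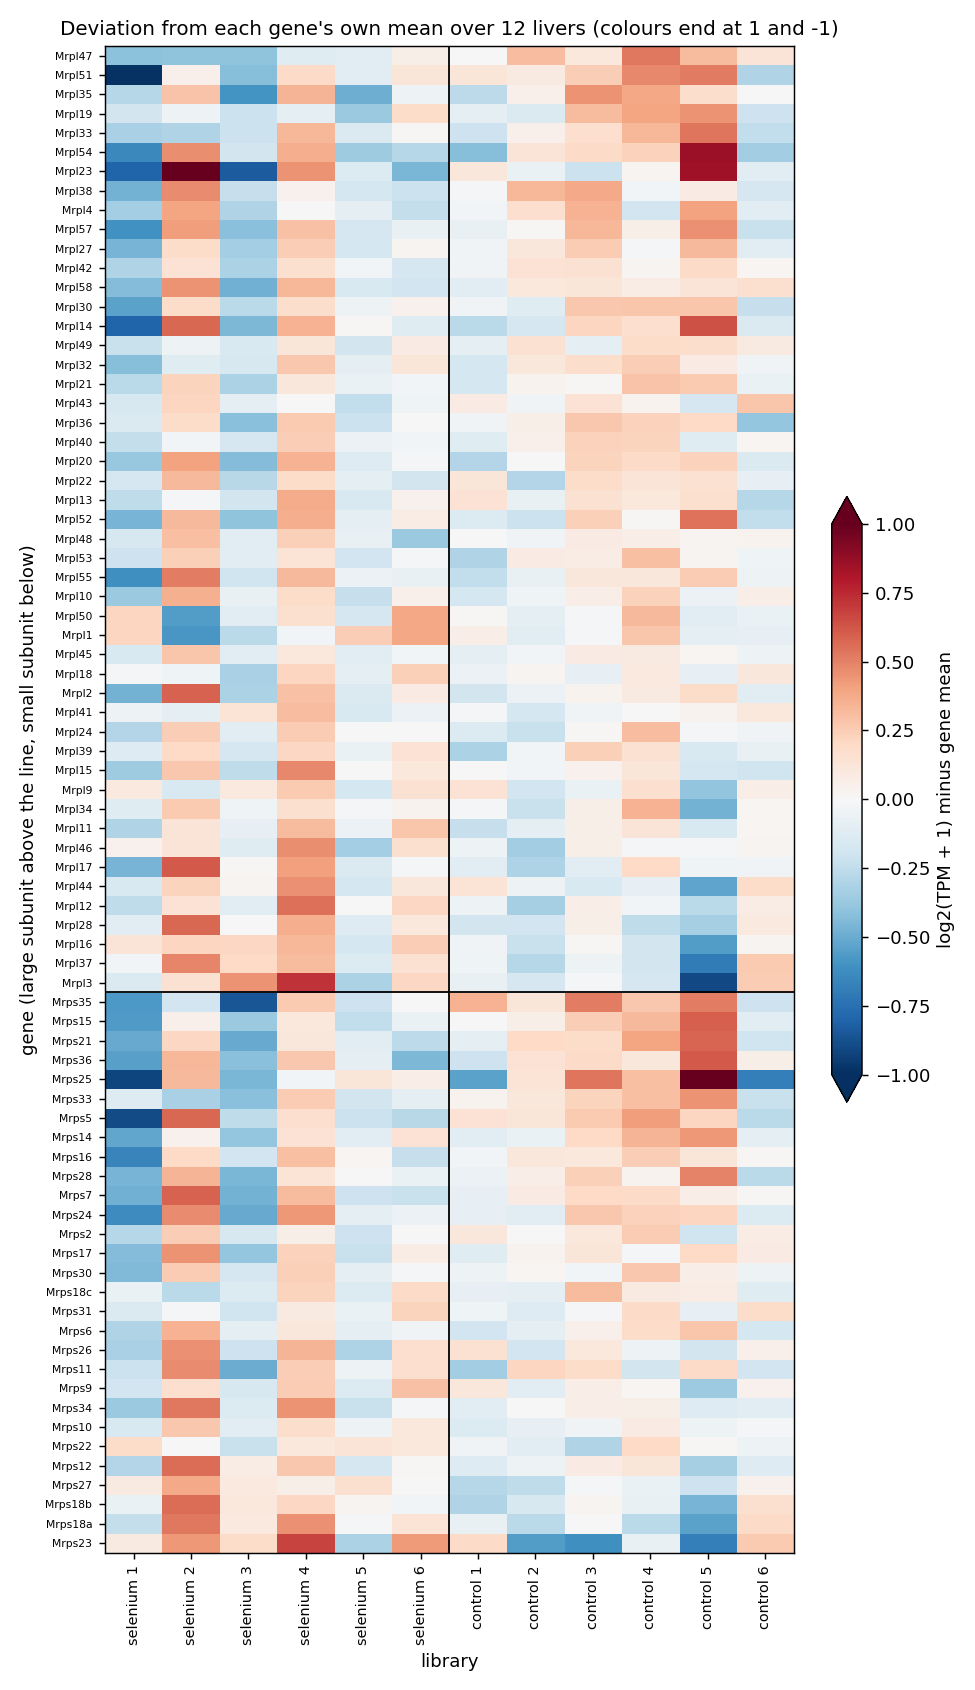
Deviation of each gene's log2(TPM + 1) from its own mean over the 12 libraries, with selenium columns left of control columns, genes grouped by symbol and ordered by log2 change, and colours ending at 1 and -1 (2 of 936 values lie beyond). Most genes of a column share a colour, blue in selenium 1 and 3 and red in selenium 2 and 4.

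The SD between selenium livers on log2(TPM + 1) was larger than that between control livers in 63 of the 78 genes (80.8%), and in 64.6% of all tested genes. The median SD was 0.274 in selenium and 0.185 in control livers for the members, beside 0.274 in selenium and 0.221 in control livers for all tested genes. Genes of a library are not independent, and no test of this difference in spread was made.

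Other measures moved with the libraries. In selenium 2 the deviation of the 78 genes rose with the GC content of their transcripts, with a Spearman rho across genes of 0.61, and of 0.56 across 9218 tested genes with a known GC content. In selenium 4 it was 0.28 and in control 4 -0.41, and in the other libraries it lay between -0.25 and 0.14. Cytosolic ribosomal protein genes deviated by -0.39, 0.11, -0.14, 0.32, -0.09 and 0.01 in selenium livers 1 to 6, and by -0.11, -0.23, 0.15, 0.14, 0.27 and -0.04 in control livers 1 to 6. The part of RNA quality or base composition in the members' values was not tested.

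Dbp, a transcription factor whose RNA cycles with the circadian clock, was 31.5 and 53.6 TPM in selenium 1 and 5 and 15.7 and 28.5 TPM in controls 5 and 6, and 0.72 to 1.44 TPM in the other 8 libraries. Among those 8 livers, 4 of each group, the median log2 change of the members was 0.03 for the large and 0.02 for the small subunit. Among the 4 livers with high Dbp, 2 of each group, it was -0.26 for the large and -0.25 for the small subunit. The values for Mrpl47 were -0.45 in the 8 and -0.48 in the 4 livers, for Mrps35 -0.51 and -0.55, for Mrps27 0.29 and 0.21, for Mrpl16 0.36 and 0.24, for Mrps33 -0.31 and -0.27, and for Mrps15 -0.23 and -0.65. The part of the clock in these values was not tested.

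Leaving out single livers moved the counts at an unadjusted p under 0.05, and the shares of all tested genes moved too. Without selenium 1 there were 7 higher and 2 lower members (all tested genes 6.62% higher and 9.9% lower), and without selenium 5 there were 7 and 3 (11.6% higher and 9.43% lower). Without selenium 2 there were 2 higher and 8 lower members (6.64% higher and 11.1% lower), and without selenium 4 there were 1 and 7 (4.97% higher and 11.4% lower). Without selenium 3 there were 3 higher and 2 lower (4.39% higher and 12.2% lower), and without selenium 6 there were 2 and 3 (5.35% higher and 11.8% lower). Without control 6 there were 8 higher and 6 lower members (9.76% higher and 12.1% lower), and without control 4 there were 3 and 2 (6.79% higher and 10.4% lower). Without control 2 or control 5 there was 1 higher member, with 3 and 2 lower ones (4.41% higher and 9.68% lower without control 2, 4.39% higher and 9.51% lower without control 5). Without control 1 or control 3 there were 2 higher members, with 4 and 3 lower ones (5.93% higher and 10.9% lower without control 1, 6.01% higher and 9.86% lower without control 3). None of the 78 genes passed an adjusted p under 0.05 in these 12 limma fits.

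The authors' deposited table gave somewhat higher estimates. In the authors' deposited table, after its sign was turned to selenium over control, 1 of the 78 genes had an adjusted p under 0.05, beside 9.87% of all tested genes (6.97% in the higher direction, that of this member). That gene was Mrpl16, with a log2 change of 0.40 and an adjusted p of 0.0254 in the authors' deposited table. Next came Mrpl3 at 0.51 with an adjusted p of 0.0702 and Mrps27 at 0.38 with an adjusted p of 0.0825, both from the authors' deposited table. The median over the 78 genes was 0.04 in the authors' deposited table, with 49 genes above 0, and -0.06 as the log2 ratio of mean TPM. For all tested genes these medians were 0.06 in the authors' deposited table, with 5805 of 9980 genes above 0, and -0.02 from TPM.

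The difference between both estimates exceeded 0.25 in 3 members (3.85%), against 7.77% of all tested genes, and all 3 were lower by TPM. For Mrps35 the log2 ratio of mean TPM was -0.52 and the authors' deposited table gave -0.08. For Mrpl19 these values were -0.41 from TPM and -0.03 in the authors' deposited table. For Mrpl47 they were -0.53 from TPM and -0.22 in the authors' deposited table, where its p was 0.206.

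**Figure D5:**
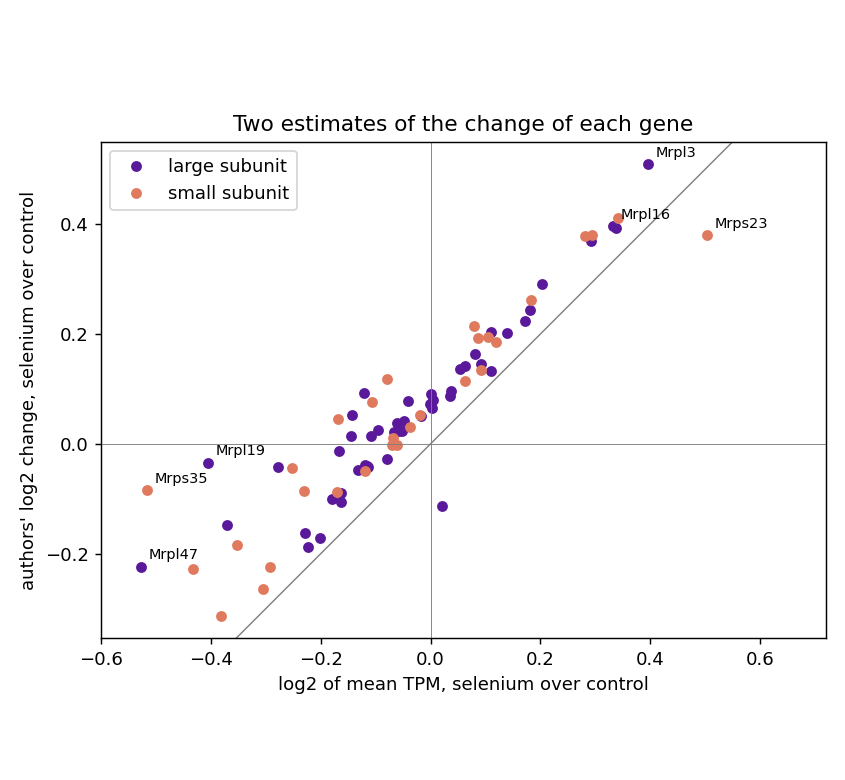
The log2 ratio of mean TPM, selenium over control, on the horizontal axis against the authors' log2 change on the vertical axis for the 78 genes, with the line of equal values. Most points lie above the line, by a median of 0.08, and Mrps35, Mrpl19 and Mrpl47 lie furthest above it.

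The rest of the mitochondrial translation system gave no adjusted call outside the mitochondrial genome. Among 5 mitoribosomal proteins whose symbols fall outside the pattern, the median log2 change was -0.18. Ptcd3, a pentatricopeptide protein of the small subunit, had 9.89 ± 0.795 TPM in selenium and 12.2 ± 1.40 TPM in control livers, with a log2 change of -0.27, and was the 1 lower gene at an unadjusted p under 0.05. Dap3, a GTP-binding protein of the small subunit, was among the other 4. Ptcd3 alone was 20% of the 5, against 18.5% of all tested genes by limma (7.01% higher and 11.4% lower). Of the 30 assembly and rRNA modification factors, 27 were tested, with a median of 0.03, 1 higher and 2 lower at an unadjusted p under 0.05. These were 11.1% of the 27, against 18.5% of all tested genes by limma (7.01% higher and 11.4% lower). Gtpbp10, a GTPase of large subunit assembly, had a log2 change of -0.32, and Mterf3, which is needed for ribosome biogenesis, -0.34.

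Among 17 translation factors and mRNA-binding proteins, 1 was higher and 2 were lower at an unadjusted p under 0.05, with a median of 0.04. These were 17.6% of the list, against 18.5% of all tested genes by limma (7.01% higher and 11.4% lower). Slirp, which with Lrpprc binds and stabilizes mitochondrial mRNAs, had 7.52 ± 2.13 TPM in selenium and 11.7 ± 1.43 TPM in control livers, a log2 change of -0.61 with an adjusted p of 0.0961. Taco1, a translational activator of cytochrome c oxidase subunit 1, had a log2 change of 0.47 with an adjusted p of 0.133. Of 20 genes for aminoacyl-tRNA synthesis, 17 were tested, with 2 higher and 1 lower (again 17.6%) and a median of 0.05. Lars2, the leucyl-tRNA synthetase, had 16.2 ± 4.56 TPM in selenium and 27.9 ± 12.6 TPM in control livers, and Ears2, the glutamyl-tRNA synthetase, 2.64 ± 0.470 TPM in selenium and 1.93 ± 0.363 TPM in control livers.

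Of 17 genes for mitochondrial DNA copying, transcription and RNA processing, 16 were tested, with a median of -0.04. At an unadjusted p under 0.05, 1 was higher and 3 were lower. These were 25% of the 16, against 18.5% of all tested genes by limma (7.01% higher and 11.4% lower). Ssbp1, which binds single-stranded mitochondrial DNA, had 18.2 ± 3.07 TPM in selenium and 26.6 ± 3.23 TPM in control livers, a log2 change of -0.53 with an adjusted p of 0.0681. Mterf1a, a transcription termination factor, had a log2 change of -0.45 with an adjusted p of 0.133. Of 10 regulators, 8 were tested, with 0 higher and 2 lower (also 25%). Myc had 1.03 ± 0.467 TPM in selenium and 1.90 ± 0.407 TPM in control livers, and Gabpb1, a subunit of the ETS factor GABP, 2.02 ± 0.401 TPM in selenium and 2.72 ± 0.455 TPM in control livers. Their adjusted p-values were 0.117 for Myc and 0.210 for Gabpb1.

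Of the mRNAs that this ribosome translates and its rRNAs, 1 entry passed the threshold. Of the 15 mitochondrial-encoded mRNAs and rRNAs, 12 were lower and 0 higher at an unadjusted p under 0.05, with a median log2 change of -0.54. The lower ones were 80% of the list, against 11.4% of all tested genes by limma. mt-Atp6, a subunit of ATP synthase, passed with an adjusted p of 0.0439 and a log2 change of -0.76, with 3252 ± 411 TPM in selenium and 5524 ± 919 TPM in control livers. This call ended in 9 of the 12 fits with 1 library left out, and held without selenium 6, control 1 or control 6. Over all 12 of these limma fits the adjusted p ran from 0.0273 to 0.111 and the log2 change from -0.82 to -0.71. The call also ended under median-of-ratios scaling (adjusted p 0.0555), quantile normalization (0.0591), the replicate block (0.0998) and no filter (0.153), and among the 8 livers with low Dbp (0.0670). The groups of mt-Atp6 did not overlap, at 2720 to 3873 TPM in selenium and 4427 to 6517 TPM in control livers. Nor did those of mt-Nd6, at 1192 to 2532 TPM in selenium and 2558 to 4798 TPM in control livers. Its log2 change was -0.82, with a limma adjusted p of 0.0880. Lower groups with no overlap were thus seen in 2 of the 15 genes and in 1.47% of all tested genes. mt-Nd3, of complex I, had a log2 change of -0.60 with an adjusted p of 0.0853. mt-Atp8, like mt-Atp6 of ATP synthase, did not pass, with a log2 change of -0.71 and a limma adjusted p of 0.134. How reads were divided between the 2 entries was not tested. The ribosomal RNAs of the same ribosome, mt-Rnr1 and mt-Rnr2, named for that role, had log2 changes of 0.19 (-0.14 to 0.52) and 0.02 (-0.28 to 0.32).

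The cytosolic ribosomal protein genes had a median log2 change of -0.07, with 28 of 83 tested genes above and 55 below 0. This median was 0.07 among the 8 livers with low Dbp, 0.01 with array weights and 0.01 without selenium 1. In them 4 genes were higher and 6 lower at an unadjusted p under 0.05 and 0 passed an adjusted p under 0.05. Rpl5 and Rps2, with the smallest p, had log2 changes of -0.49 and 0.57, and both have near-identical copies in the genome that can take up reads. No difference between the cytosolic and the mitochondrial set was tested.

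Hepatocyte markers were high in every library, with a summed level of Alb, Apoa1, Ttr, Cps1, Tat and Ass1 of 25852 to 39660 TPM in selenium and 26828 to 44664 TPM in control livers. All 5 Kupffer cell markers were present in each library, at a sum of 34.0 to 118 TPM in selenium and 26.8 to 75.6 TPM in control livers. The 5 endothelial markers summed to 11.8 to 28.2 TPM in selenium and 6.75 to 34.2 TPM in control livers, and the 5 stellate cell markers to 17.5 to 69.5 TPM in selenium and 43.8 to 62.3 TPM in control livers. The 4 cholangiocyte markers summed to 0.89 to 3.97 TPM in selenium and 2.21 to 6.77 TPM in control livers. The 3 erythroid markers summed to 213 to 792 TPM in selenium and 242 to 2170 TPM in control livers. None of the markers of these 6 cell types separated the groups.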

How the data were processed

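Liver RNA was sequenced in 6 selenium and 6 control libraries. The submitters' processing notes name the build GRCm39 and the tools RSEM 1.2.8, HISAT2 2.1.0 and DESeq2. The authors deposited TPM per gene and library, so read depth and counting error are unknown, the sources used here do not state strand use, and a change in abundant genes shifts all other values. The authors' deposited table also holds log2 fold changes, control over selenium (the sign was turned here), and p-values, raw and adjusted.

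Genes with at least 1 TPM in 6 or more of 12 libraries (9980) were fitted in R 4.3.3 with limma 3.58.1 on log2(TPM + 1), a scale that understates changes of low genes. The model had an intensity trend and no covariate, the test was two-sided, Benjamini-Hochberg adjustment ran over all 9980 genes, and the threshold was 0.05. Changes are selenium minus control with 95% intervals. Tested on simulated data with 200 of 9980 genes changed, this recovered 48.3% of 1.5-fold, 87.2% of 2-fold and 95.3% of 3-fold changes, with 3.87% false calls. The simulated noise was normal, independent between genes and equally wide in both groups, and folds were added on log2(TPM + 1). It left out the shifts of whole libraries and the wider spread of the selenium livers, so these rates need not hold for the real data.

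The members and lists were chosen with earlier results of these data known, so counts over them are descriptions. Named genes are, per subunit, the 5 smallest p in each direction, the 4 highest and 2 lowest median levels, a set of 10 with known roles, and the 2 smallest p of each pathway list. Head-to-head partners, motif carriers, mt-Atp8 and mt-Rnr genes were named for their position, level or role, and mt-Nd6 because its groups did not overlap. Bacterial or mitochondria-specific origin was assigned from general knowledge after values had been seen. Promoter windows and transcript lengths come from GRCm38 tables and were used by symbol. No protein sequences were used here. Over all tested genes, same-numbered livers had correlations of their deviations from -0.14 to 0.11. The labels do not say what the numbers mean, so the main fit did not pair livers by number. Whether same-numbered livers shared a cage or handling is unknown. Plots used matplotlib 3.10.9. The lymphocyte markers are not reported here.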

Additional observations from a re-analysis of the deposited data

Results flagged for a closer look

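In 4 of the 68 groups of 6 libraries examined (32 named genes and the mean deviation of each subunit, in both groups), 1 library stood apart by Dixon's criterion at the 95% level, and chance alone gives about 1 in 20. Mrpl3 was 2.46 on log2(TPM + 1) in control 5 (4.51 TPM), against 8.18 to 11.3 TPM in the other controls. Mrpl23 was 2.39 in control 5 (4.23 TPM), against 1.51 to 2.15 TPM in the others. Mrps30 was 3.09 in control 4 (7.53 TPM), against 5.82 to 6.39 TPM, and Mrpl58 was 4.75 in control 1 (26.0 TPM), against 29.5 to 31.3 TPM.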

How the results depend on the processing

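The count of 0 members past the adjusted threshold held in every alternative run except rescaling without mitochondrial-encoded genes, which gave 1 (Mrpl47, log2 change -0.56). The count over all tested genes, 33 as reported, was 1 with no filter, 12 with quantile normalization, 190 after that rescaling, 56 with robust empirical Bayes, 255 with array weights, and 7 (without control 2) to 171 (without control 6) when single livers were left out, within 1.5 times of 33 only without control 3 (22) or selenium 6 (31). Members higher at an unadjusted p under 0.05, 3 as reported, were 8 with median-of-ratios scaling (10.9% of all tested genes), 7 with quantile normalization (13.4%), 7 with array weights (13.3%), 0 after the rescaling (3.65%) and 8 in the 8 livers with low Dbp (14.1%), and 1 to 8 when single livers were left out. Lower members, 4 as reported, were 8 after the rescaling (17.5%), 2 in the low-Dbp livers (7.27%), and 2 to 8 with single livers left out.

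Members higher with no overlap, 0 as reported, were 1 (Mrpl16) with median-of-ratios scaling (1.24%) and with quantile normalization (1.43%), and 5 (Mrpl3, Mrpl16, Mrpl37, Mrps18a and Mrps27) in the low-Dbp livers (10.8%). Leaving out single livers gave 0 to 1 in each direction: Mrpl16 without selenium 5 (1.6% of all tested genes higher), Mrps27 and Mrpl47 without selenium 6 (0.24% higher, 2.73% lower), Mrpl47 without control 1 (1.94% lower) and Mrps27 without control 6 (1.53% higher). With single livers left out, the medians ran from -0.12 to -0.02 (large) and from -0.13 to -0.01 (small), and in the low-Dbp livers they were 0.03 and 0.02. The median of assembly factors turned to -0.03 with no filter, -0.06 after the rescaling, -0.02 without selenium 2 and -0.00112 without selenium 4. That of translation factors turned to -0.05 after the rescaling, -0.03 without selenium 4 and -0.02 without control 5. The aminoacyl-tRNA median turned to -0.03 with the 5 TPM filter and after the rescaling, -0.00243 without selenium 4 and -0.01 without control 5, and that of mitochondrial DNA genes to 0.02 without control 4. The cytosolic ribosomal median turned to 0.07 in the low-Dbp livers, 0.01 with array weights and 0.01 without selenium 1.

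Signs turned in the low-Dbp livers for Mrpl14 (0.10), Mrpl23 (0.12), Mrps17 (0.0850), Mrps30 (0.0236) and Mrpl10 (0.11), and with array weights for Mrps18c (0.0188) and Mrpl10 (0.0297). Over single livers left out, Mrpl14 ran from -0.27 to 0.00156 (without selenium 1), Mrps30 from -0.13 to 0.00467 (without selenium 1) and Mrpl10 from -0.11 to 0.0397 (above 0 without selenium 1, selenium 5 or control 4). The cause was not tested. With the replicate number as a block, 3 of all tested genes passed (33 without), 0 members did, and mt-Atp6 had an adjusted p of 0.0998, and no pair of same-numbered livers was each other's best match. The mitochondrial-encoded list has no value after rescaling without its genes. Depth cannot be read from TPM, so the precision of the low genes Mrpl19 and Mrpl23 is unknown.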
